A study of Mus musculus with 10 samples.

Results

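The subject of this account is the ion channel genes of the mouse testis, which comprise the voltage-gated and ligand-gated families and their auxiliary subunits. Members were every array probe with a single gene symbol beginning with Kcn, Scn and a digit, Cacn, Clcn, Gabr, Gria, Grik, Grin, Grid, Chrn, Glra, Glrb, Htr3, or Trpc, Trpv or Trpm and a digit. The rule gave 127 probes for 124 genes, of 8841 genes that carried 1 symbol on the array, and it used no measured value. Testes came from 15 male BALB/c mice aged 9 weeks, which formed 5 groups of 3. Control mice were given carrier (dimethylsulfoxide and PBS) without drug and were killed after 10 h. TSA mice were given 60 µg of trichostatin A (TSA), an inhibitor of histone deacetylases, under the skin in 1 injection, and 1 group each was killed after 2.5, 5, 7.5 and 10 h. A single RNA pool was made per group and read on 2 CodeLink 1-colour arrays, so each group is n = 1 pool and only the 10 h TSA pool matched the control in hour of killing. Deposited values are linear normalised intensities centred near 1, and the brightness of one probe cannot be compared with that of another as a transcript level.

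Ion channels are membrane proteins that let selected ions pass when the voltage changes or a ligand binds. Potassium channels draw the membrane back toward rest, sodium and calcium channels depolarise it, and receptors for GABA, glycine, glutamate, acetylcholine and serotonin open on transmitter binding. Most of these genes are known from neurons and muscle, while a few, such as Kcnu1 (the sperm potassium channel Slo3) and the T-type calcium channel gene Cacna1h, are known from male germ cells.

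Most channel probes were dim in testis. Of the 127 probes, 125 had values (the acetylcholine receptor genes Chrnb1 and Chrng had none), and 67 passed the filter that left out the dimmest 25% of the array, a geometric mean intensity under 0.207. That is 53.6% of the members with values, against 75% of all probes, and 47 of the 58 members left out were under that level on each of the 10 arrays. Of the 67 tested members, 49 were dimmer than 1.99, the median of the 7422 tested probes, and 18 were brighter. The mean intensity of members ranged from 0.0334 to 106. In bulk RNA, fewer cells of a type and less RNA per cell cannot be told apart, so every difference here is one of RNA in whole testis.

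The tissue label was checked against its markers. The germ cell gene Ldhc had pool means between 195 and 219, the Leydig cell gene Cyp17a1 between 86.0 and 104, and the leukocyte gene Ptprc between 0.0429 and 0.0824. Of 11 leukocyte probes 5 were above the filter, with a median log2 fold of -0.13. The B cell gene Cd79a (2.06 in control, 2.78 to 3.31 after TSA) and Spi1 (1.46 and 1.96 to 2.38) were higher. Cd14, Lyz2 and Lyz1 were lower, with log2 folds of -0.50, -0.27 and -0.13. None passed limma, with 2 higher and 1 lower at an unadjusted p under 0.05. The 5 h pool stood apart, because all 10 tested liver markers were at least 2-fold higher there than in control with arrays that did not overlap, at a median log2 fold of 5.00, so the called genes and the medians over all times are also given without it at the end. Duplicate arrays correlated across probes with r from 0.995 to 0.998, and the SD of a single array was highest in the 7.5 h pool, at 0.163 on the log2 scale.

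Comparing the 4 TSA pools with the control pool asked which channel genes differed after the drug at any hour. 8 channel genes rose and 1 fell. The risers were Gabrr1, Kcna7, Kcnh3, Cacna1b, Kcnk2, Scn11a, Kcnj3 and Kcne1, with folds from 1.51 to 2.03, and the gene that fell was Kcnab1. limma on the 5 pool means with Benjamini-Hochberg adjustment over all 7422 probes gave each of the 9 an adjusted p between 0.0434 and 0.0485, just inside the limit of 0.05. The 9 were 13.4% of the 67 tested members, beside 3.53% of all tested probes (2.74% higher and 0.795% lower). At an unadjusted p under 0.05 in the same limma fit, 24 members were higher (35.8%, all probes 14.7%) and 4 lower (5.97%, all probes 13.7%). Each of the 9 calls was lost when any 1 of the TSA pools was left out, with 21 to 29 members then still at an unadjusted p under 0.05. With the pool as a random block on the 10 arrays, the share of members called was close to that of all probes (16.4% and 14.1%). None of the 9 passed limma either with no filter on dim probes (35 of 125 members unadjusted) or after centring within bins of neighbouring ID numbers (22 of 67 members unadjusted). For these runs the share of all probes at that unadjusted limit is not given, so the counts cannot show whether members exceeded it.

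The filter bears on these counts. In 7 of the 67 tested members (10.4%, against 1.89% of all tested probes) the control pool itself lay under the filter level, so that they passed only because the TSA pools were brighter: Cacna1c, Clcn2, Gabrr1, Grin2c, Kcna1, Kcna7 and Kcnk1. The counts over tested members are therefore a description of the probes that passed. Among the 60 members whose control pool and mean TSA pool both reached the filter level, a split made after seeing the data, 7 of the 9 calls stood, without Gabrr1 and Kcna7 (11.7%, against 3.12% of the 7240 probes of that kind). Over all 125 members with values the median log2 fold of TSA over control was 0.12, against -0.01 over all 9897 probes with values, and 77 of the 125 were above 0 (61.6%, all probes 48.8%). Among the 58 members below the filter the median was 0.06, and among all probes below it 0.02.

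**Figure D1:**
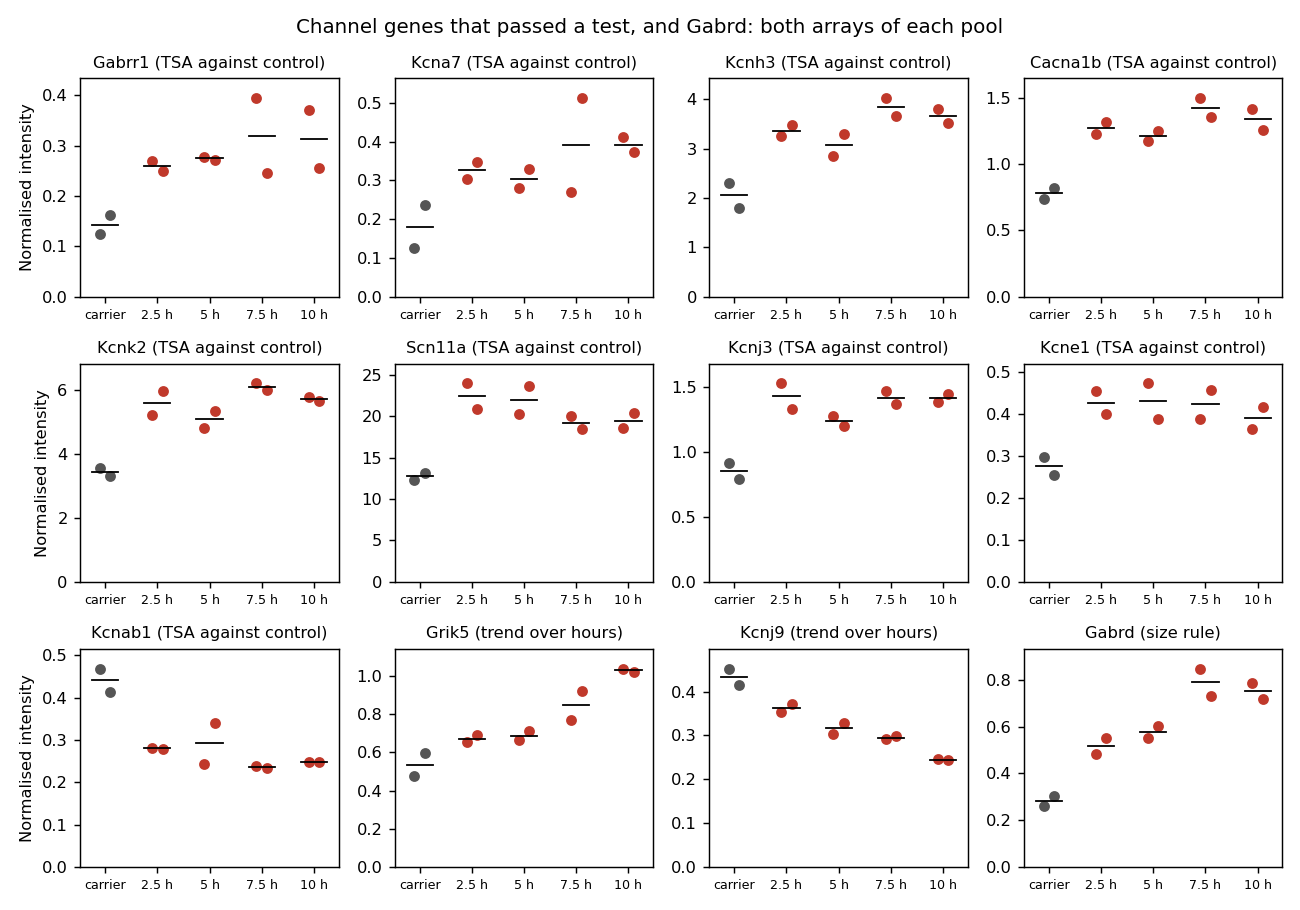
Normalised intensity (linear axis from 0) of the 11 channel probes that passed a limma test and of Gabrd, in the carrier control pool (grey) and the 4 TSA pools (red); each point is 1 of 2 technical arrays and each bar the mean of a pool. In the 8 genes that rose, every TSA array lies above both control arrays, while Grik5 climbs and Kcnj9 declines from the control to the 10 h pool. At a single time, both TSA arrays lay above both control arrays in 35.5% to 39.8% of all tested probes. The share with every TSA array above is not given. The genes that passed were chosen by limma on these same values, so their separation is not further support.

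Potassium channels supplied 29 of the tested members, of 55 on the array, with 5 that rose, 1 that fell and a median log2 fold of 0.28. The voltage-gated pore-forming genes, which repolarise the membrane after a depolarisation, had the highest median of the potassium groups, 0.50 over 9 probes, and 2 of the 9 rose. Kcna7 encodes Kv1.7, a channel of heart and skeletal muscle. Its control arrays read 0.125 and 0.236, and the TSA arrays read 0.304 and 0.348 at 2.5 h, 0.280 and 0.329 at 5 h, 0.270 and 0.512 at 7.5 h, and 0.412 and 0.372 at 10 h. All 8 TSA arrays lay above both control arrays, although the control duplicates differed more from each other than the higher of them did from the lowest TSA array. Separation of technical arrays was common, although the share of probes with all 8 TSA arrays above control is not given. At a single time both TSA arrays lay above both control arrays in 35.5% to 39.8% of all tested probes, and below them in 38.6% to 42.8%. The mean log2 fold was 1.01 ± 0.16 (SE over pools, limma, adjusted p = 0.0474).

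Kcnh3, which encodes the forebrain channel Kv12.2, read 2.31 and 1.80 in control, 3.26 and 3.47 at 2.5 h, 2.84 and 3.29 at 5 h, 4.02 and 3.66 at 7.5 h, and 3.81 and 3.52 at 10 h. Its groups did not overlap, and the mean fold was 1.70 (log2 0.76 ± 0.15, limma adjusted p = 0.0485). Kcnd2 encodes Kv4.2, the pore of the transient A-type current, and read 1.62 and 1.76 in control against 3.24 and 2.55, 3.45 and 2.63, 3.51 and 3.83, and 2.68 and 2.72 at the 4 times in order. Every TSA array was above both control arrays here as well, and the fold was 1.80 with an adjusted p of 0.0523 by limma, just outside the limit. Kcns1, a silent modulatory subunit, was higher by 0.66 ± 0.14 on the log2 scale but missed the limit (limma adjusted p = 0.0524), and Kcna1 and Kcnh7 each had 0.50. Kcna2, Kcnc1 and Kcnh1 had folds between -0.02 and 0.10 on the log2 scale. The probes of Kcnh2 and Kcnq1, which carry the late repolarising currents of the heart, were below the filter, with no array above 0.135.

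The auxiliary subunits of voltage-gated potassium channels moved both ways, with 1 that rose, 1 that fell and a median of 0.07 over 7 probes. Kcne1 (MinK), the partner of the Kcnq1 pore, read 0.298 and 0.255 in control and 0.454 and 0.399, 0.473 and 0.388, 0.389 and 0.457, and 0.364 and 0.416 in the TSA pools in order of time. The groups did not overlap, and the rise was 1.51-fold (log2 0.59 ± 0.11, limma adjusted p = 0.0484). Kcnab1, a cytoplasmic beta subunit that speeds inactivation, read 0.469 and 0.414 in control and 0.282 and 0.278, 0.243 and 0.341, 0.238 and 0.233, and 0.247 and 0.247 in the TSA pools. It was lower on all 8 TSA arrays than on both control arrays and fell 1.68-fold (log2 -0.75 ± 0.15, limma adjusted p = 0.0485). Kcnab2, its relative, was not called over the TSA pools, but its arrays read 3.07 and 3.09 in control, 3.04 and 3.10 at 2.5 h and 4.33 and 4.37 at 10 h, a log2 fold of 0.50 ± 0.0076 at 10 h with an SE from the duplicate arrays alone. Kcnip3, a calcium-sensing partner, had a log2 fold of -0.32 ± 0.13, and Kcne3, whose arrays lay between 11.6 and 13.8, had 0.07 ± 0.11.

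Inward rectifiers set the resting potential, and 3 of 13 probes were bright enough to test. All 3 were subunits of the channels that G proteins open (GIRK), of which 1 rose and the other two did not pass this comparison. Kcnj3 (Kir3.1) read 0.912 and 0.789 in control, 1.53 and 1.33 at 2.5 h, 1.28 and 1.2 at 5 h, 1.47 and 1.37 at 7.5 h and 1.39 and 1.45 at 10 h. It rose 1.62-fold (log2 0.69 ± 0.13, limma adjusted p = 0.0474) with no overlap between groups. Kcnj6 (Kir3.2) had a log2 fold of 0.45 ± 0.12 that did not pass (limma adjusted p = 0.0813), while Kcnj9 (Kir3.3) had -0.52 ± 0.20. The other Kcnj9 probe and Kcnj11, the pore of the ATP-sensitive channel, were below the filter.

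Two-pore-domain genes carry the background potassium leak, and 1 of the 5 tested rose. Kcnk2, which encodes the mechanically and lipid-gated channel TREK-1, read 3.57 and 3.30 in control, 5.20 and 5.95 at 2.5 h, 4.81 and 5.35 at 5 h, 6.20 and 6.0 at 7.5 h and 5.77 and 5.66 at 10 h. Its groups were well apart, at 1.63-fold (log2 0.70 ± 0.13, limma adjusted p = 0.0484). Kcnk7 had 0.57 ± 0.13 and Kcnk1 (TWIK-1) 0.38 ± 0.13, both on the log2 scale and neither called. Kcnk3 (TASK-1) stayed between 1.15 and 1.25 on the control arrays and on those of the first 3 times, and read 1.71 and 1.57 at 10 h. Of the 2 probes of Kcnk4 (TRAAK), 1 read between 98.2 and 116 on all arrays and was tested, and the other read between 0.109 and 0.218 and was below the filter. The tested probe had a log2 fold of -0.14 ± 0.11, and the nearest coding gene to Kcnk4 in the mouse gene table is Catsperz, a gene of the sperm calcium channel complex.

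The calcium- and sodium-activated group had a median of -0.01 over 5 probes and no member passed, with 1 at an unadjusted p under 0.05 by limma. Kcnu1, the pore of the sperm potassium channel, read 2.18 and 2.12 in control and 1.64 and 1.56 at 2.5 h, a log2 fold of -0.43 ± 0.04 (SE from duplicate arrays), and 1.91 and 2.11 at 10 h, a fold of -0.10 ± 0.07. All 8 TSA arrays were below both control arrays, yet over the 4 pools the fold was -0.26 ± 0.15 (limma adjusted p = 0.306). Kcnn4, the intermediate-conductance channel, had 0.44 ± 0.17, and Kcnmb4, a beta subunit with arrays between 9.92 and 12.1, had -0.01 ± 0.12. 1 of the 2 probes of Kcnma1 (the BK pore) was tested, with 0.30 ± 0.15, and the other was below the filter.

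**Figure D2:**
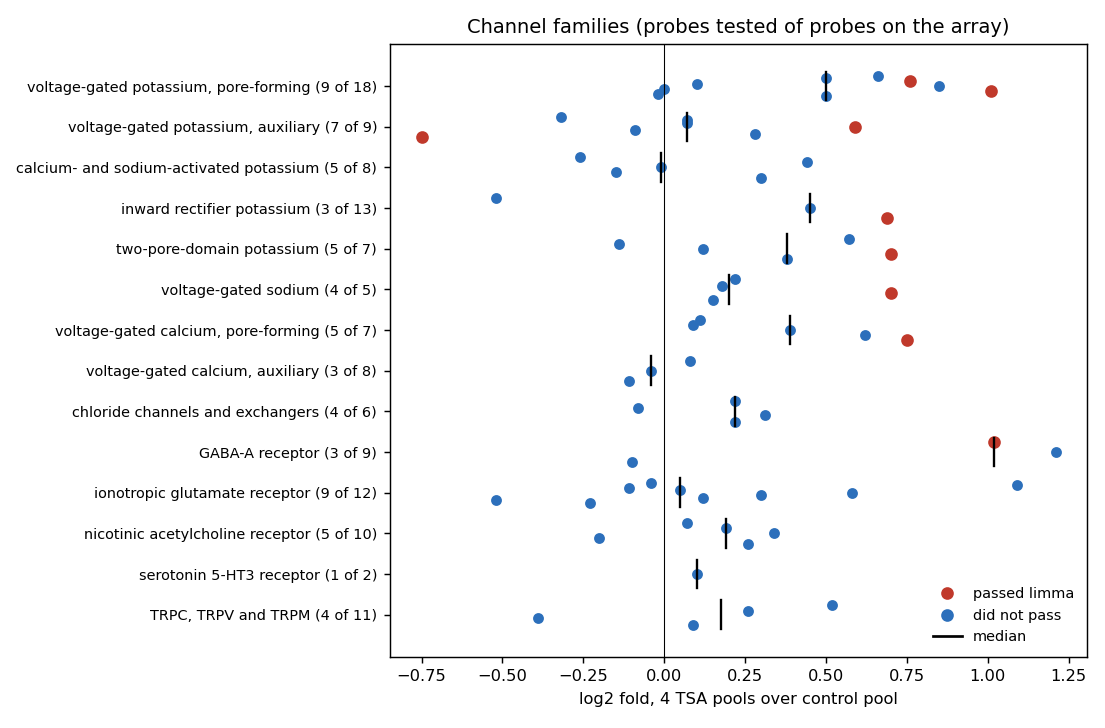
Log2 fold of the 4 TSA pools over the control pool for each of the 67 tested channel probes, by family; red points passed limma, blue points did not, the black line is the family median, and the numbers are probes tested of probes on the array. The 9 that passed are spread over 7 families, and the glycine receptor genes, with 0 of 2 tested, are not drawn.

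Sodium and calcium channels depolarise the cell, and 2 of the 12 tested members rose. Scn11a encodes Nav1.9 of pain-sensing neurons. Its arrays read 12.3 and 13.2 in control, 24.0 and 20.9 at 2.5 h, 20.3 and 23.7 at 5 h, 20.0 and 18.5 at 7.5 h and 18.6 and 20.4 at 10 h. The TSA pools were all above control with the first 2 times highest, and the mean fold was 1.63 (log2 0.70 ± 0.13, limma adjusted p = 0.0484). Scn10a (Nav1.8), its nearest coding neighbour in the gene table and also a gene of pain-sensing neurons, had a log2 fold of 0.15 ± 0.15 with arrays between 4.84 and 7.04. Scn1a and Scn7a had 0.18 and 0.22, and neither passed, while Scn8a was below the filter.

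Among the pore-forming calcium channel genes, all 5 tested had a mean above control at every time, and 1 rose. Cacna1b (Cav2.2, the N-type channel of nerve endings) read 0.737 and 0.824 in control, 1.23 and 1.32 at 2.5 h, 1.18 and 1.25 at 5 h, 1.5 and 1.36 at 7.5 h and 1.42 and 1.26 at 10 h. The groups did not overlap, at 1.68-fold (log2 0.75 ± 0.13, limma adjusted p = 0.0474). Cacna1c (Cav1.2) had 0.62 ± 0.15 and Cacna1f (Cav1.4) 0.39 ± 0.14 on the log2 scale, neither called. Cacna1s, of skeletal muscle, had 0.11 ± 0.12. Cacna1h read between 21.7 and 26.5 on the 10 arrays, and its log2 fold was 0.09 ± 0.11. Cacna1g, another T-type gene, was below the filter, and its arrays went from 0.0747 and 0.0434 in control to 0.237 and 0.162 at 10 h. The 3 tested auxiliary genes had folds from -0.11 (Cacna2d1) to 0.08 (Cacng4), with none at an unadjusted p under 0.05 by limma.

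Chloride channels and exchangers of the Clcn family had a median of 0.22 over 4 probes, and none passed limma, with Clcn3 the 1 at an unadjusted p under 0.05. Clcn3, an exchanger of endosomes and synaptic vesicles, read 7.58 and 7.31 in control and between 8.35 and 10.1 on the TSA arrays, a log2 fold of 0.31 ± 0.11 (limma adjusted p = 0.129). Clcn2, a plasma membrane channel whose loss is known to harm spermatogenesis, was higher at 2.5 h (0.318 and 0.288) than in control (0.198 and 0.202), and lay between 0.200 and 0.243 afterwards. Clcn5 was below the filter.

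The receptors for inhibitory transmitters were few but held the largest fold of the tested members, that of Gabrd. Of 9 GABA-A receptor probes 3 were tested, and of the 2 glycine receptor probes none. Gabrr1 encodes rho1, a subunit of retina, and read 0.124 and 0.162 in control, 0.269 and 0.249 at 2.5 h, 0.278 and 0.272 at 5 h, 0.394 and 0.246 at 7.5 h and 0.370 and 0.256 at 10 h. Each TSA array was above both control arrays, and the fold was 2.03 (log2 1.02 ± 0.14, limma adjusted p = 0.0434). Gabrd encodes delta, a subunit of receptors outside synapses, and read 0.260 and 0.303 in control, 0.482 and 0.549 at 2.5 h, 0.549 and 0.603 at 5 h, 0.848 and 0.730 at 7.5 h and 0.785 and 0.719 at 10 h. It was higher at every time, most at 7.5 and 10 h, and its log2 fold of 1.21 ± 0.25 missed the limit narrowly (limma adjusted p = 0.0521). Gabrd overlaps the coding gene Cfap74 in the mouse gene table, and whether the probe reads the strand of only 1 of them was not tested. Gabrb1, the third tested subunit, had -0.10 ± 0.12.

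Ionotropic glutamate receptors, the cation channels of excitatory synapses, had a median log2 fold of 0.05 over 9 probes with folds from -0.52 to 1.09, and none passed this comparison by limma, with 2 higher and 1 lower at an unadjusted p under 0.05. Grin2c, an NMDA receptor subunit of cerebellum, read 0.165 and 0.0777 in control and 0.202 and 0.191, 0.273 and 0.291, 0.215 and 0.187, and 0.327 and 0.285 in the TSA pools in order. Its 8 TSA arrays were above both control arrays, and the control duplicates differed by more than 2-fold. Gria4, an AMPA receptor subunit, read 0.555 and 0.538 in control, 0.310 and 0.301 at 2.5 h and 0.411 and 0.403 at 10 h, and its log2 fold of -0.52 ± 0.20 did not pass (limma adjusted p = 0.153). Grin2b read between 13.0 and 16.2 throughout, with -0.11 ± 0.12. Grina, which matches the rule by its letters though it does not encode a channel pore, had -0.04 ± 0.11.

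Nicotinic receptor genes had a median of 0.19 over 5 probes and none passed limma (1 at an unadjusted p under 0.05, Chrna6 at 0.34 ± 0.14). Chrna7, the homomeric alpha7 subunit, had duplicates of 0.218 and 1.03 at 7.5 h, so that its log2 fold there of 0.94 had an SE of 1.12, and at 10 h it read 0.196 and 0.189 against 0.267 and 0.227 in control. Grin2a showed the same split in that pool, 0.154 and 0.612. Chrne, of the adult muscle receptor, lay between 13.7 and 17.4 on all arrays, and it overlaps the coding gene 4930544D05Rik. The serotonin receptor gene Htr3b had 0.10 ± 0.15, and Htr3a was below the filter. Of the TRP cation channels 4 were tested and none passed limma, with 1 at an unadjusted p under 0.05: Trpm7, a channel joined to a kinase, had 0.52 ± 0.18. Trpc4ap, which matches by its letters but encodes a binding partner, declined on the arrays from 3.51 and 3.36 in control to 2.09 and 2.21 at 10 h, with a slope of -0.06 per hour that did not pass (limma adjusted p = 0.0936).

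The starts of the genes that rose are shown as a description. Their folds share 1 control pool, and 32.3% of all tested probes were above control in 4 of 4 TSA pools. Whether these genes share a regulator was not tested. The 250 bases before each start are from RefSeq on GRCm38.p6, written 5′ to 3′ on the gene's strand, for the 5 risers with a single listed start. Capitals mark GGGCGG or its reverse complement, the letters of a GC box, which Sp1-type factors are known to bind.
Cacna1b (chr2:24763153-24763402, minus strand): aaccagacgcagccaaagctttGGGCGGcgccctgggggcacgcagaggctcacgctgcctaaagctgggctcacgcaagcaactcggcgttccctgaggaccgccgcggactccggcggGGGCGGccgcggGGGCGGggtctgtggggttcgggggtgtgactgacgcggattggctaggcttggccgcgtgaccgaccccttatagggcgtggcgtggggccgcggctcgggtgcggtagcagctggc
Gabrr1 (chr4:33132306-33132555, plus strand): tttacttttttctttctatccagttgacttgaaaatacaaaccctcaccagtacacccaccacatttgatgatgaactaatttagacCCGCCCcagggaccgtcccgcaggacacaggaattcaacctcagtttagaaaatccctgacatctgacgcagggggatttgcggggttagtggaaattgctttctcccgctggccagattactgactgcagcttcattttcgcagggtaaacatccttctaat
Kcnj3 (chr2:55435720-55435969, plus strand): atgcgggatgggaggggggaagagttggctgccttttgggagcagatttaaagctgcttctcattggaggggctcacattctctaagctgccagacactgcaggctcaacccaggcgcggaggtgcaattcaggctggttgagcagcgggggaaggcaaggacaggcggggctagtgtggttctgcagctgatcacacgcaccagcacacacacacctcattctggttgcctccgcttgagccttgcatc
Scn11a (chr9:119825457-119825706, minus strand): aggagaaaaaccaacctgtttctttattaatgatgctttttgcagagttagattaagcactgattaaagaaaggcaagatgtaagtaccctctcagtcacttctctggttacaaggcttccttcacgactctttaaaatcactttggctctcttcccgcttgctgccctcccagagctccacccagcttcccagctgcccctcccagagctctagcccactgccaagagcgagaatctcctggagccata
Kcna7 (chr7:45405710-45405959, plus strand): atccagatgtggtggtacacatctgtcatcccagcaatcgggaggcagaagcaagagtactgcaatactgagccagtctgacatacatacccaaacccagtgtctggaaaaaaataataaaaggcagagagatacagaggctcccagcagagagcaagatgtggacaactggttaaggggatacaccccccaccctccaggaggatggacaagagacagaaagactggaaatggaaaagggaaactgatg
These stretches differ widely in composition, from 72.0% G and C in Cacna1b to 46.0% in Gabrr1, and from 29 CG pairs in Cacna1b to 1 in Kcna7. GGGCGG was found 3 times in Cacna1b, at -228, -130 and -118, and 1 time in Gabrr1, at -163. Positions are those of the motif's first letter, counted back from the start. Further motifs were searched on both strands and were in none of these 5 windows: the TATA box letters TATAAA, the cyclic AMP element TGACGTCA, and TTCAGCACC and also GGACAGC from the left and right of the element that REST, a repressor of neuronal genes, is known to bind. GGGCGG stood in 48.6% of 70 starts of tested channel genes, in 53.4% of 6830 starts of all genes tested on the array, and in 32.7% of all 32851 starts in the table. TATAAA stood in 1.43%, 7.53% and 12.4% of the same sets, TGACGTCA in 1.43%, 2.47% and 1.55%, GGACAGC in 7.14%, 5.83% and 5.28%, and TTCAGCACC in 0%, 0.293% and 0.301%. Kcnk2 has 4 listed starts, of which 1 held GGGCGG, and Kcnab1 has 3, of which the first held it at -152 and -61. Kcnh3, Kcne1 and Gabrd were not matched.

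A slope fitted over the 5 pools, with the control at 0 h, asked which genes changed steadily with time. Grik5 rose and Kcnj9 fell. These 2 were 2.99% of the tested members, beside 2.01% of all tested probes (0.35% up and 1.66% down), so their share was near the background. Grik5, a kainate receptor subunit that forms channels together with others, read 0.475 and 0.596 in control, 0.654 and 0.690 at 2.5 h, 0.663 and 0.713 at 5 h, 0.772 and 0.924 at 7.5 h and 1.04 and 1.02 at 10 h. Its pool means stood in order of time, and the slope was 0.09 ± 0.01 log2 per hour (limma adjusted p = 0.0437). Kcnj9 read 0.453 and 0.416, 0.354 and 0.373, 0.304 and 0.328, 0.292 and 0.298, and 0.247 and 0.243 in the same order. Its pools descended in order of time, and the slope was -0.08 ± 0.01 (limma adjusted p = 0.0437). The other Kcnj9 probe, below the filter, had pool means of 0.274 in control and 0.221, 0.186, 0.169 and 0.201 after TSA in order of time. On that probe the 10 h pool stood above the 5 h and 7.5 h pools.

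Both trend calls ended when any single pool was left out, the control included. Gabrd had a steeper slope, 0.14 ± 0.03, and missed the limit (limma adjusted p = 0.0506). At an unadjusted p under 0.05 in the limma fit, 22 members had a rising slope (32.8%, all probes 12.7%) and 3 a falling one (4.48%, all probes 12.4%). The control is the 0 h point, so members that passed the filter only through brighter TSA pools lean toward a rising slope. With control and mean TSA pools both at the filter level or above, 60 members remained. Of these, 17 rose (28.3%, all probes 12.1%) and 3 fell (5.0%, all probes 12.5%) at that limit. The stretch before the start of Grik5 held GGGCGG at -185 and -63, and that of Kcnj9 held TATAAA at -168. In the gene table Grik5 overlaps the coding gene Zfp574 and, among the genes described above, Kcnh3 overlaps Mcrs1, Cacna1h Tpsg1, Cacna1c Dcp1b, Clcn2 Fam131a, Gabrb1 Gabra4, Kcnab2 Nphp4 and Trpc4ap Myh7b.

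Time by time, the pools were compared by a size rule with no p-value, a change of 2-fold or more in which both TSA arrays lay beyond both control arrays. At 2.5 h no member met it (0.916% of all tested probes did, 0.674% upward). At 5 h 2 did, Gabrd and Grin2c (2.99%, all probes 1.55%, 1.21% upward). At 7.5 h 4 did, Gabrd, Gabrr1, Kcna7 and Kcnd2 (5.97%, all probes 1.91%, 1.01% upward), and at 10 h 4 did, Gabrd, Gabrr1, Kcna7 and Grin2c (5.97%, all probes 2.67%, 1.23% upward). All of these were higher after TSA. In Gabrr1, Kcna7 and Grin2c the control pool lay under the filter level, and without such probes Gabrd alone met the rule at 5 h (1.67%, all probes 1.12%), Gabrd and Kcnd2 at 7.5 h (3.33%, all probes 1.38%) and Gabrd alone at 10 h (1.67%, all probes 2.15%). Of the 5 genes only Kcnd2 was above a mean intensity of 1 in control. Gabrd met the rule at 3 times, as 0.431% of all tested probes did upward at 3 or 4 times. Its log2 folds were 0.88, 1.04, 1.49 and 1.42 in order, with SEs of 0.13 to 0.15 from the duplicate arrays.

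**Figure D3:**
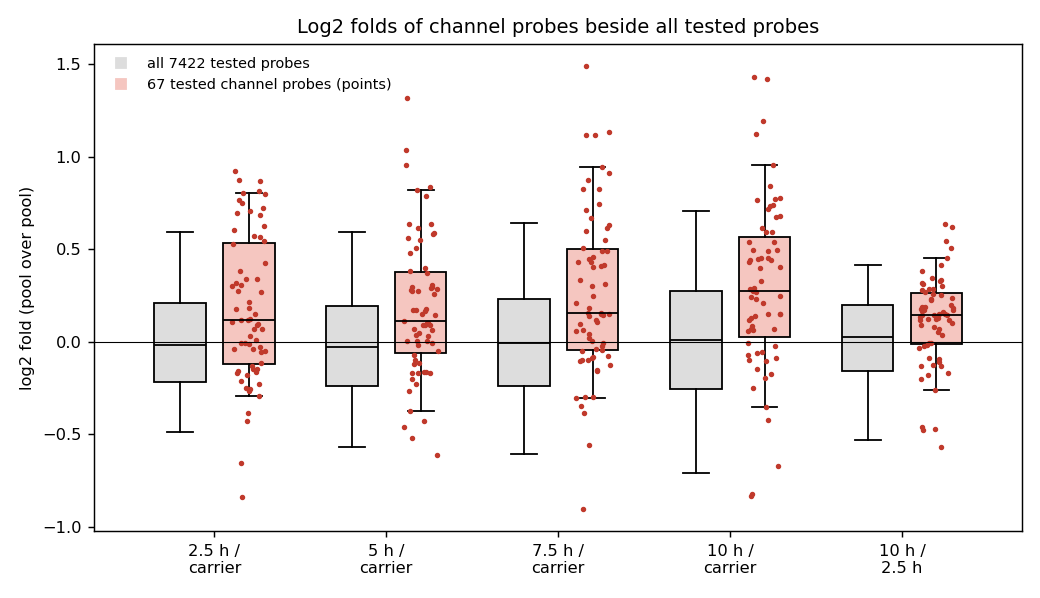
Log2 folds of the 67 tested channel probes (red boxes and points) beside all 7422 tested probes (grey boxes) for each TSA pool over the control pool, and for the 10 h over the 2.5 h pool; boxes span the quartiles with the median as a line, and whiskers the 5th to 95th percentiles. The channel medians, 0.12, 0.11, 0.16, 0.27 and 0.15, lie above those of all probes, -0.02, -0.03, -0.01, 0.01 and 0.03.

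Taken as a list, the tested channel probes had a higher centre than all tested probes at each time. The median log2 folds were 0.12 at 2.5 h, 0.11 at 5 h, 0.16 at 7.5 h and 0.27 at 10 h, against -0.02, -0.03, -0.01 and 0.01. These 4 comparisons share the control pool, so they are not separate evidence. The share of tested members above control was 61.2%, 70.1%, 68.7% and 74.6%, against 47.8%, 46.5%, 49.0% and 51.0% of all tested probes. At 5 h it was 56.7% (all probes 48.7%) after arrays were centred within bins of neighbouring ID numbers. Those 67 include the 7 that passed the filter only through brighter TSA pools. Over all 125 members with values the shares were 57.6%, 56.8%, 60.8% and 66.4% (all probes 47.0%, 45.6%, 49.3% and 50.1%). Among members below the filter they were 53.4%, 41.4%, 51.7% and 56.9% (all probes 44.5%, 42.8%, 50.3% and 47.4%). In all 4 TSA pools 34 members were above control (50.7%, all probes 32.3%) and 12 below (17.9%, all probes 34.1%). The 10 h pool over the 2.5 h pool, which does not use the control, had a median of 0.15 against 0.03, and 48 of 67 members were above 0 (71.6%, all probes 53.8%), while none met the size rule (0.984% of all probes, 0.189% upward). Grin2c, Grik5 and Gabrd had the highest folds there, 0.64, 0.62 and 0.55, and Kcnj9, Chrna7 and Clcn2 the lowest, -0.57, -0.48 and -0.47.

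Brightness was set beside the folds because most members are dim. Among tested probes dimmer than their median the TSA fold had a median of 0.19 over 49 members and -0.03 over all 3711 probes. Among the brighter ones it was 0.12 over 18 members and -0.01 over all 3711. The dimmer members include the 7 that passed the filter only through brighter TSA pools, so their median is partly set by the filter. Over the 60 members with control and mean TSA pools both at the filter level or above, dim and bright together, it was 0.11 (all 7240 such probes -0.02). From 2.5 to 10 h the dimmer members had a median of 0.17 (all probes 0.05), while the brighter members had 0.01 (all probes 0.01). The called risers spanned both sides, with Kcnh3, Kcnk2 and Scn11a among the brighter probes.

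**Figure D4:**
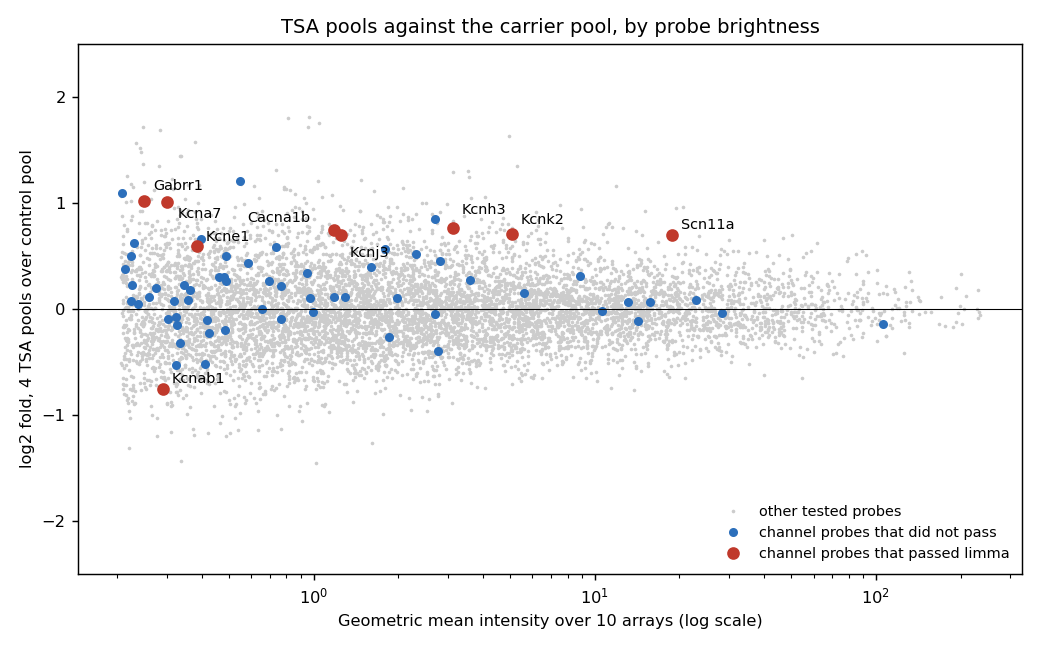
Log2 fold of the 4 TSA pools over the control pool (linear axis) against the geometric mean intensity over the 10 arrays (log axis) for the 67 channel probes and all other tested probes (grey). The 9 that passed limma (red, named) run from dim probes such as Gabrr1 and Kcnab1 to Scn11a, and the brightest channel probes lie near 0.

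Other genes of the same machinery were taken from lists. Channels outside the symbol rule, such as the Catsper, P2rx and Hcn genes, gave 18 tested probes with a median of 0.04, and none passed limma, with 0 higher and 4 lower at an unadjusted p under 0.05. Catsper1, a pore gene of the sperm calcium channel, had pool means of 4.36 in control and 2.99 to 3.36 after TSA, and Catsper2 had 10.6 and 9.86 to 12.7. Partners and anchors of channels gave 18 tested probes with a median of 0.08, with 3 higher and 3 lower at an unadjusted p under 0.05 by limma. After adjustment 2 of the 18 rose, beside 2.74% of all tested probes. They were Homer3, a scaffold of glutamate receptor synapses (0.72 ± 0.12, adjusted p = 0.0474), and Lin7c, a scaffold of cell junctions (0.75 ± 0.15, adjusted p = 0.0485). Rapsn had the largest fold of this list, -1.17 ± 0.29, which did not pass (limma adjusted p = 0.0717). It was lower by the size rule at 7.5 h (log2 -1.37) and 10 h (-1.56). Homer1 did not pass, with pool means of 0.449 in control and 0.277 to 0.321 after TSA.

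Markers of cell types that use these channels were read in the same pools. Of 15 tested neuron probes none passed the TSA comparison by limma, with 4 higher and 1 lower at an unadjusted p under 0.05, and their median was 0.05. The summed intensity of all 25 neuron probes with values was 39.3 to 39.6 on the control arrays and 39.8 to 45.9 on the TSA arrays. Ncan, a matrix gene of brain, rose with time (slope 0.14 per hour, limma adjusted p = 0.0437). The RNA-binding gene Elavl3 met the size rule at 2.5, 5 and 7.5 h, but its control mean of 0.118 lay under the filter level of 0.207. Stmn2 stayed at or below 0.0427 and Nefm at or below 0.148. Camk2a (12.7 in control, at most 14.1) and Uchl1 (12.1 to 12.8) made up most of the sum and had log2 folds of -0.04 and 0.01. Dimmer markers went both ways, none of them called. Syt1, Snap25 and Gad1 had 0.69, 0.52 and 0.49, Gad2 and Elavl4 had -0.44 and -0.20, and Syn2, Th and Nrgn had -0.05, -0.02 and 0.03. Of 10 tested muscle probes none passed limma, with 4 higher and 0 lower at an unadjusted p under 0.05, and the median was 0.24, beside 0.18 over the channel members. The summed signal of all 22 muscle probes with values was 14.6 to 15.2 in control and 15.5 to 20.6 after TSA. Ckm stayed at or below 0.0762 and Myh2 at or below 0.0834. Tnni3 was the largest part of that sum, with pool means from 8.46 in control to 10.6 at 2.5 h. Actc1 went from 1.59 in control to 2.62 at 10 h (log2 0.56 over the 4 TSA pools, not called), and Casq2 read 0.332 at 2.5 h and at most 0.0891 elsewhere. Des, Tnnt2 and Casq1 went the other way, with log2 folds of -0.44, -0.16 and -0.15, none called. The 6 tested smooth muscle and peritubular probes had a median of -0.05. None of these 6 passed limma, with 1 higher and 0 lower at an unadjusted p under 0.05. Whether cells of these types had a part in the channel values was not tested.

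The germ cell list had a median of -0.22 over 18 probes, and Brdt, a bromodomain gene of spermatocytes, fell (log2 -0.79 ± 0.15, limma adjusted p = 0.0484). Tcp11 and Tex101, 2 genes of developing germ cells, fell with time, with slopes of -0.11 and -0.12 per hour (limma adjusted p = 0.023 and 0.0387). Of the 18, 7 had a falling slope and 1 a rising one at an unadjusted p under 0.05 by limma (all probes 12.4% and 12.7%). By the size rule at 10 h, 3 were lower (all probes 1.44%). Acrv1, Tnp1, Odf2 and Ldhc went the other way, with log2 folds over the 4 TSA pools of 0.55, 0.20, 0.14 and 0.12, none called. Whether a change in germ cells had a part in the channel values was not tested.

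Without the 5 h pool, the called genes had log2 folds of 1.08 (Kcna7), 1.04 (Gabrr1), 0.82 (Kcnh3), 0.79 (Cacna1b), 0.75 (Kcnk2), 0.74 (Kcnj3), 0.67 (Scn11a), 0.58 (Kcne1) and -0.80 (Kcnab1), and their adjusted p by limma rose to between 0.0888 and 0.104. Those sizes are close to the folds over all 4 pools. Slopes without it were 0.09 for Grik5 and -0.08 for Kcnj9, with adjusted p of 0.0682 and 0.0808 by limma. Over the other 3 TSA pools the tested members had a median log2 fold of 0.18 and all tested probes -0.01, and 34 members were above control in all 3 (50.7%, all probes 34.6%). Over the members with values the median was 0.16, with 65.6% above 0 (all probes 49.1%).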

How the data were processed

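RNA from the testes of 15 mice, in pools of 3, was read on 10 CodeLink 1-colour arrays, 2 technical arrays for each of 5 pools, processed in parallel per the labels. The deposited intensity values were linear, and their sorted values were identical on all 10 arrays, so the authors had quantile normalised them. Not given in the sources used here are the scanner, the background correction and the program behind that step. Of 10012 probes, 9897 had values. A floor was set at the 5th percentile (0.0364), log2 was taken, arrays were shifted to a common median, and the lowest 25% of probes by mean were left out, leaving 7422.

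Tests were two-sided, in limma 3.58.1 (R 4.3.3) on the 5 pool means, with 3 residual degrees of freedom and Benjamini-Hochberg adjustment over the 7422 probes. The lone control pool was assumed to vary like the TSA pools. SEs of a single time come from the 4 arrays of 2 pools and hold array noise only, and differences between the 3 mice of a pool were not measured. For arrays no counting depth applies, and their number limits the precision. The methods were tested on simulated data.

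Symbols came from the platform table: 8983 probes had 1 symbol, 1 had several and 1028 had none. All 127 member probes matched a RefSeq gene by gene identifier, and 96 member genes had a promoter entry. The members, families, marker lists and the naming rule were chosen with earlier results of these data known. Named were members that passed a test or met the size rule, the 10 largest folds each way among those on one side of control in 4 of 4 TSA pools, up to 2 of the brightest per family, and a fixed list, with others added after their values were seen. Alternatives were other filters, scalings, floors, offsets and fold limits, arrays and pools left out, and other limma designs. Figures used matplotlib 3.10.9.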

Additional observations from a re-analysis of the deposited data

Results flagged for a closer look

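In 4 members all arrays of 1 TSA pool lay above both control arrays and all arrays of another TSA pool lay below them, and the difference between the pools was not tested. The beta subunit gene Kcnab3 had a log2 fold of 0.15 at 10 h and -0.27 at 5 h. Kcna2, a voltage-gated potassium channel gene of axons, had 0.15 at 10 h and -0.17 at 5 h. For Trpc1, a cation channel gene, the folds were 0.18 at 5 h and -0.08 at 7.5 h. Clcn4, a chloride and proton exchanger gene, had 0.07 at 2.5 h and -0.23 at 5 h. Such opposite sides were found for 1062 of all 7422 tested probes (14.3%).

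Trpm5, a cation channel gene of taste cells, was left out by the filter but stood out at 5 h. Its mean intensity was 0.586 there (arrays 0.553 and 0.619) against 0.0526 in control, and no array of the other TSA pools was above 0.109. All 10 tested liver markers met the size rule in that same pool, and their part in the Trpm5 value was not tested.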

How the results depend on the processing

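No called gene reversed its direction under any alternative run, while 2 family medians changed sign under ID-number centring, as given below. The TSA comparison called 9 channel probes (262 of all probes). It called 0 with no filter (1 of all) and 0 with arrays centred within bins of neighbouring ID numbers (9 of all). Without each TSA pool in turn it called 0 (3 to 7 of all). At an unadjusted p under 0.05 these runs had 35 of 125, 22 of 67 and 21 to 29 of 67 members. The share of all probes at that unadjusted limit is not given. It called 6 with an offset of 0.25 (340 of all) and 8 of 27 with the lowest 50% left out (573 of 4948). It called 11 with the pool as a random block (1044), 12 with eBayes trend and robust (795), and 0 to 12 with arrays left out (1 to 496 of all). The trend called 2 (149 of all). It called 0 with no filter, the lowest 50% left out, a term for TSA or any pool left out (0 to 179 of all). In those runs 12 to 30 members were at an unadjusted p under 0.05, and the share of all probes there is not given. It called 1 with ID-number centring (169 of all), 5 with the random block (719), and 0 to 3 with arrays left out (24 to 193 of all).

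The size rule called 0, 2, 4 and 4 members at 2.5, 5, 7.5 and 10 h and 0 for 10 h over 2.5 h. With no filter it called 2, 7, 10, 9 and 3 of 125 members (219, 355, 554, 458 and 171 of 9897 probes). At 1.5-fold it called 16, 11, 15, 20 and 2 (all probes 562, 730, 876, 1221 and 408). At 3-fold it called 0 at 5, 7.5 and 10 h (all probes 0.566%, 0.216% and 0.391%). With the lowest 50% left out it called 0, 1 and 0 of 27 members at those times (all probes 0.546%, 0.748% and 1.48%). With the offset it called 0, 1 and 0 of 67 (all probes 0.862%, 0.431% and 0.876%). With only probes whose control and mean TSA pools both reached the filter level, an alternative chosen after seeing the data, it called 1, 2 and 1 of 60 (all probes 1.12%, 1.38% and 2.15%). Arrays left out gave 0 to 2, 1 to 4, 3 to 8 and 2 to 4 (all probes 71 to 88, 118 to 128, 154 to 201 and 219 to 271).

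Same-numbered arrays share only a number, since their deviations correlated between -0.187 and 0.14 over 10 pairs of pools. On the 10 arrays the replicate block gave 28 calls in the TSA comparison and 26 in the trend, against 30 and 26 without a block, with 2388 and 2111 of all probes, against 2660 and 2353, and technical arrays counted as replicates. Centring on like ID numbers turned the sign of the medians of the glutamate receptors (0.05 to -0.11) and of the calcium- and sodium-activated potassium channels (-0.01 to 0.09), and took the chloride channels from 0.22 to 0.00 and the nicotinic receptors from 0.19 to 0.03. Quantile normalisation could not change values that already had 1 distribution. What lies behind the lost calls was not tested.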
